A study of Mus musculus with 32 samples.

Results

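Gm5662, Gm8300, Gm2016, Gm2022 and BB287469 are 5 mouse genes on chromosome 12 whose coding sequences closely resemble Eif1a, the gene for the translation initiation factor eIF1A. They were chosen by name from the genes detected in 2-cell embryos, so their high level in 2-cell DMSO embryos is how they were selected and is given as a description. The 5 were read out of 55385 annotated genes in 16 RNA-seq libraries. A search for proteins like eIF1A found 18 such genes, of which 16 lie in 829306 bases of chromosome 12 and the other two are Eif1a itself and Eif1ax on the X chromosome. The 11 remaining copies of the cluster are used here as the closest comparison.

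The study asked what happens to the first embryonic transcription when histone acetylation or its removal is blocked after fertilization. All embryos were wild type and came from in vitro fertilization of B6D2F1/J oocytes with B6D2F1/J sperm, both taken from mice of 6 to 8 weeks. In the A-485 experiment, A-485 was given at 10 µM from 4 hours post in vitro fertilization (hpi), and controls received the solvent DMSO. A-485 blocks the acetyltransferase activity of CBP and p300. RNA was taken from zygotes and from 2-cell embryos at an early and a late time. The inhibitor was taken away at 20 hpi, so the late 2-cell embryos of this experiment were measured after its removal. In a separate experiment, late 2-cell embryos were collected after culture with 50 nM trichostatin A (TSA), an inhibitor of histone deacetylases, or with DMSO, from 8 to 28 hpi. Each of the 8 groups had 2 libraries, and each library was made from total RNA of whole embryos. Nothing in the labels says whether the replicates were separate collections, so the p-values measure the spread between these libraries, which may be technical. The embryos carry DBA/2J as well as C57BL/6J alleles, whereas reads were assigned on the C57BL/6J reference genome. In whole embryos, fewer cells that express a gene and less RNA per cell cannot be told apart.

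eIF1A binds the small ribosomal subunit, helps to load the initiator tRNA and keeps the complex scanning along the mRNA until it meets a start codon. The mouse genome makes it from Eif1ax, and Eif1a encodes a protein identical to it at 142 of 144 aligned residues. RNA for eIF1A-like proteins is a long-known product of the first burst of transcription in the 2-cell mouse embryo, when the embryo turns from maternal RNA to its own. The copies on chromosome 12 are protein-coding in the annotation, but whether each one makes a protein was not measured in these data.

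The 5 genes were close copies of each other. Each coded for 144 residues. Between any pair of them, 97.2% to 99.1% of the coding bases and 94.4% to 98.6% of the residues were identical. Their proteins matched eIF1A from Eif1a at 91.7% to 95.1% of aligned residues and the product of Eif1ax at 90.3% to 93.8%. The annotated Eif1a protein used here has 254 residues, so its likeness covers the aligned part only. Gm5662 and Gm2016 were the most alike, with 428 of 432 coding bases shared. BB287469 stood farthest from Eif1a, with 132 of 144 residues shared.

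On the GRCm38 assembly with GENCODE M21, Gm8300 (ENSMUSG00000079034.2) lies at chr12:87514316-87518266 on the plus strand. BB287469 (ENSMUSG00000079031.1) lies at chr12:87816577-87820676, Gm2016 (ENSMUSG00000072905.5) at chr12:87874072-87877859 and Gm2022 (ENSMUSG00000113971.1) at chr12:87895370-87895804, all on the plus strand. Gm5662 (ENSMUSG00000079029.2) lies at chr12:88270640-88274500 on the minus strand. In 4 of the 5 the whole coding sequence lies in the second of 2 exons. Gm2022 is annotated only as a coding stretch of 435 bases with no UTR, so reads from any UTR it may have were not counted for it.

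Of the 5 genes the RefSeq promoter table held only BB287469. Its 150 bases before the annotated start are shown with those of its near-identical copy Gm4027 and of Gm21319, a copy whose start lay in an ATAC peak. The sequences are from GRCm38.p6 and are written 5′ to 3′ on the strand of each gene. BB287469 is at chr12:87816427-87816576 on the plus strand, Gm4027 at chr12:87618719-87618868 on the plus strand and Gm21319 at chr12:87775756-87775905 on the minus strand. Capitals mark TGATTNAAT and TATATATA, a pair of letter runs picked after these sequences were seen and searched on both strands.
BB287469: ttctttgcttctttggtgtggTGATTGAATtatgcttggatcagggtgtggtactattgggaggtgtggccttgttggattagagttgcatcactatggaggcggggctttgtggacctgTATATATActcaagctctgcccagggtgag
Gm4027: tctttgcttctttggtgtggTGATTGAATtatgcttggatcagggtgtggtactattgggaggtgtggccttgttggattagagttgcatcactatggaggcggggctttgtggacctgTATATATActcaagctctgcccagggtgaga
Gm21319: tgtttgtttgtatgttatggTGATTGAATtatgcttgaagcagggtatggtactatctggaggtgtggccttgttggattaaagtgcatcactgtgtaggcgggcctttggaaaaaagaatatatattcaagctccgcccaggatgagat
BB287469 and Gm4027 were identical at all 149 aligned bases, and BB287469 and Gm21319 at 123 of 148. Gm21936, the other copy whose 150 bases the table held, matched BB287469 at 79 of 130 aligned bases and held neither run. The run TGATTNAAT began 129 bases before the start of BB287469 and 130 bases before those of Gm4027 and Gm21319. TATATATA began 30 bases before the start of BB287469 and 31 before that of Gm4027, and did not occur in the window of Gm21319. Over the 150 bases before the RefSeq start of 32851 promoters, 0.326% held the first run and 0.347% the second. The sequences above end at the GENCODE start instead, so these shares come from windows placed differently and are a rough guide. A match describes the letters in this window and is not evidence of a bound factor.

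In DMSO embryos the 5 genes were near zero in zygotes, high in early 2-cell embryos and lower again in late 2-cell embryos. Levels are given as FPKM, fragments per transcript length and sequencing depth, with replicate 1 first. In zygotes with DMSO no gene exceeded 0.58 FPKM in either library. In early 2-cell embryos Gm5662 reached 111 and 118 FPKM, a mean of 114, which placed it at rank 791 among the 12399 genes with at least 1 FPKM. Gm2022 stood at 98.7 and 76.4 FPKM. Gm2016 stood at 77.6 and 68.3 FPKM, and these 2 genes overlapped. BB287469 was at 62.3 and 61.2 FPKM and Gm8300 at 50.4 and 56.1 FPKM. Gm5662 was above and Gm8300 below the other members in both libraries, and BB287469 lay below Gm2016 in both.

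**Figure D1:**
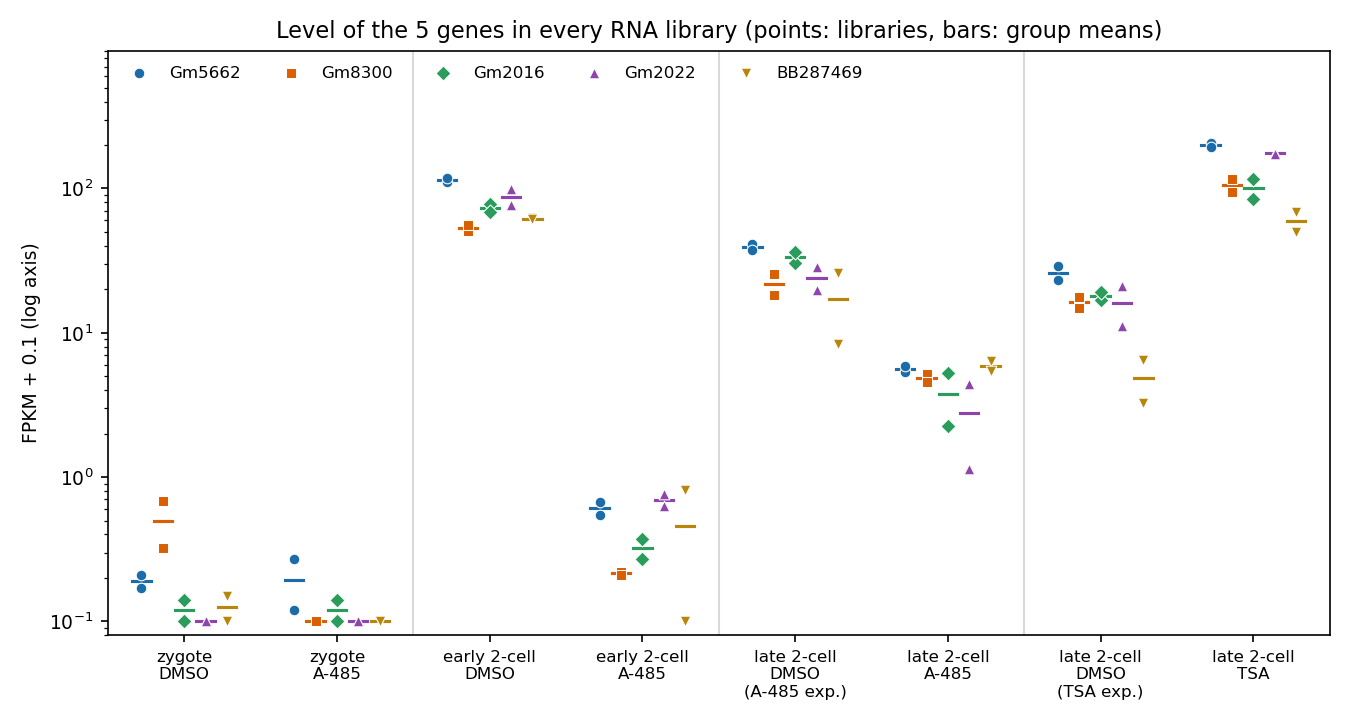
FPKM + 0.1 of the 5 genes (log axis) in each of the 16 RNA libraries, by stage and treatment, with short bars at the group means of 2 libraries. All 5 are below 1 in zygotes and in early 2-cell embryos with A-485, between 50.4 and 118 FPKM in early 2-cell DMSO embryos, and between 49.6 and 205 FPKM after TSA.

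The 2 sets of late 2-cell DMSO embryos, assigned by the style of their titles to experiments with different hours of culture, were not alike. The members' FPKM added up to 142 and 128 in the DMSO embryos of the A-485 experiment and to 68.7 and 92.9 in those of the TSA experiment, so the 2 groups did not overlap. The sum in early 2-cell DMSO embryos was 400 and 380 (mean 390 ± 14.1, SD, n = 2). In both late 2-cell DMSO groups Gm5662 had the highest mean and BB287469 the lowest. Over all 16 libraries the log2 levels of any 2 members correlated at r = 0.952 to 0.994, a description of points that share libraries and, for these genes, reads.

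With A-485, little RNA of the 5 genes was found in early 2-cell embryos. Gm5662 fell from 111 and 118 FPKM to 0.45 and 0.57 FPKM, and Gm8300 from 50.4 and 56.1 to 0.12 and 0.11 FPKM. Gm2016 was at 0.27 and 0.17 FPKM with A-485 and Gm2022 at 0.53 and 0.66 FPKM. BB287469 was listed at 0 and 0.72 FPKM. In all 5 both treated libraries lay below both DMSO libraries, as they did in 28.5% of all genes tested. All 5 passed the cutoff on mean FPKM through the DMSO embryos, the group in which they had been selected to be high.

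By edgeR's quasi-likelihood test with Benjamini-Hochberg adjustment over all genes, all 5 were called lower, where 7.9% of 20872 genes tested were called lower and 0.402% higher. A gene was called where its adjusted p was under 0.05, its fold at least 2 and its mean at least 1 FPKM in either group. The fitted change (treated minus DMSO, log2) was -8.95 (SE 0.22, adjusted p = 2.42e-10) for Gm8300, the largest of the 5. It was -8.33 (SE 0.22, adjusted p = 2.42e-10) for Gm2016 and -7.74 (SE 0.15, adjusted p = 6.07e-11) for Gm5662. For BB287469 it was -7.38 (SE 0.47, adjusted p = 3.16e-07) and for Gm2022, which had the fewest counts, -7.05 (SE 0.36, adjusted p = 4.6e-08). The members' median was -7.74, beside 0.0 over all genes tested.

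In counts, Gm5662 had 39.17 expected counts in the 2 A-485 libraries together and 8155 in the 2 DMSO libraries. Scaled to library totals, A-485 embryos held 0.451% of the DMSO level of Gm5662, with an exact 95% interval of 0.319% to 0.614%. For Gm8300 the share was 0.21% (0.099% to 0.414%) and for Gm2022, with 6.69 counts left, 0.689% (0.289% to 1.49%). These intervals cover counting error only, since reads were amplified and carry no molecular identifiers. All 28.39 counts of BB287469 with A-485 were in replicate 2, and their posterior standard deviation was 13.12 counts. Without that library the fitted change of BB287469 was -14.12, a value that rests on a group with no counts and is no bound. Without A-485 replicate 1 it was -6.45.

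**Figure D2:**
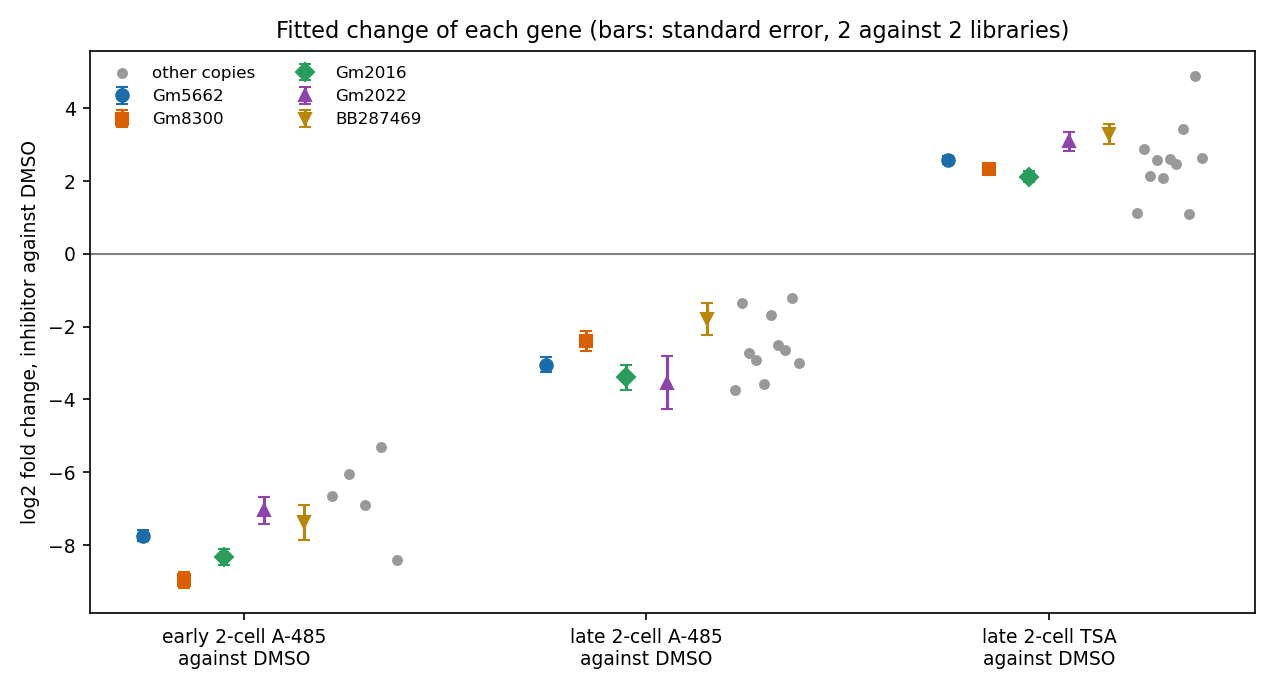
Fitted log2 fold change with its standard error (2 treated against 2 DMSO libraries) of the 5 genes, with the other copies of the cluster as grey points, for early 2-cell A-485, late 2-cell A-485 and late 2-cell TSA. The members lie between -8.95 and -7.05 in the first, between -3.54 and -1.78 in the second and between 2.12 and 3.29 in the third. Other copies with at most 3 counts in a group are not drawn, which leaves 5, 10 and 11 of the 11.

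In zygotes the 5 genes were low. Only Gm5662 and Gm8300 reached 10 counts summed over the 4 libraries and were tested, and neither was called, where 0.0657% of 18258 genes were called lower and 0.00548% higher. Gm5662 stood at 0.07 and 0.11 FPKM with DMSO and 0.02 and 0.17 FPKM with A-485, a change of 0.05 on the log2 scale (edgeR adjusted p = 0.998). Gm8300 had 10.95 and 28.09 counts with DMSO and none with A-485. Against a floor of 3 counts over the group, its level was at least 14.1-fold lower, with an edgeR adjusted p of 0.536, an unadjusted p under 0.05 and a range of adjusted p of 2.2e-05 to 0.85 over the alternatives tried. The adjusted p was 0.0313 with no count filter and 2.18e-05 with all 16 libraries in one fit, but its level stayed under the cutoff of 1 FPKM. Duxf3, a multicopy homeobox gene that switches on 2-cell genes, was the clearest related change at this stage. It was at 7.23 and 6.81 FPKM in DMSO zygotes and 0.22 and 0.27 FPKM with A-485 (log2 change -4.67, SE 0.29, edgeR adjusted p = 7.27e-06). In early 2-cell embryos, where the members were nearly absent with A-485, Duxf3 was at 5.16 and 4.92 FPKM with DMSO and 4.88 and 3.57 FPKM with A-485 (log2 change -0.24, adjusted p = 0.667).

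After removal of A-485, the 5 genes were present in late 2-cell embryos but below their DMSO level. Gm5662 stood at 41.1 and 37.2 FPKM with DMSO and 5.21 and 5.79 FPKM after A-485. Gm8300 was at 25.4 and 18.2 against 5.1 and 4.47 FPKM, and Gm2016 at 30.45 and 35.9 against 5.2 and 2.17 FPKM. Gm2022 was at 19.6 and 28.4 FPKM with DMSO and 4.35 and 1.03 FPKM after A-485. BB287469 was at 25.8 and 8.3 FPKM with DMSO and 6.25 and 5.36 FPKM after A-485, so its groups lay apart by little and its 2 DMSO libraries by much. In all 5 both treated libraries lay below both DMSO libraries, as they did in 26.6% of all genes tested.

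All 5 were called lower, where 16.8% of 22822 genes were called lower and 10.5% higher. The change was -3.54 (SE 0.73, edgeR adjusted p = 0.00221) for Gm2022, -3.39 (SE 0.34, adjusted p = 7.39e-06) for Gm2016 and -3.04 (SE 0.21, adjusted p = 3.17e-07) for Gm5662. It was -2.40 (SE 0.27, adjusted p = 1.96e-05) for Gm8300 and -1.78 (SE 0.44, adjusted p = 0.00725) for BB287469. The median of the 5 was -3.04, beside 0.28 over all genes tested. The call of BB287469 rested on DMSO replicate 1, without which its change was -0.65 (adjusted p = 0.244), and -2.37 without DMSO replicate 2. Gm2022, with 12.48 and 3.44 counts in the A-485 libraries, changed by -4.93 without A-485 replicate 1 and -2.80 without A-485 replicate 2, and Gm2016 by -4.12 without A-485 replicate 1.

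The late 2-cell A-485 embryos differed from their controls in more than these genes. Mitochondrially encoded genes took 19.5% and 20.7% of the counts after A-485 and 12.3% and 10.5% with DMSO. With the mitochondrial counts as the library size, 5558 genes were called lower and 1517 higher in place of 3824 and 2406, the median over all genes moved by -0.63 and the members' changes ran from -4.18 to -2.33. The 8 oocyte and early embryo markers added up to 1424 and 1440 FPKM after A-485 and 761 and 826 FPKM with DMSO, with none at 0. The 5 markers of the 2-cell embryo added up to 51.8 and 51.3 FPKM after A-485 and 221 and 235 FPKM with DMSO. The part of these differences in the members' change was not tested.

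The change with A-485 was smaller in late than in early 2-cell embryos for all 5 genes, by a test of the difference itself. In one edgeR fit with an interaction term, the late change lay above the early change at an adjusted p under 0.05 for 10.1% of 25141 genes and below it for 9.9%. The difference (late minus early, log2) was 6.62 (SE 0.40, adjusted p = 9.85e-12) for Gm8300 and 5.69 (SE 0.69, adjusted p = 6.93e-07) for BB287469. It was 5.01 (SE 0.43, adjusted p = 3.41e-09) for Gm2016, 4.78 (SE 0.26, adjusted p = 1.59e-12) for Gm5662 and 3.58 (SE 0.81, adjusted p = 0.00187) for Gm2022. The median was 5.01 over the members and 0.44 over all genes tested. For Gm2022 the test rested on late 2-cell A-485 replicate 1, without which the difference was 2.20 (adjusted p = 0.173). For BB287469 it was 12.25 without early 2-cell A-485 replicate 2, and stage and the time since removal of the inhibitor cannot be told apart in any of the 5.

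TSA raised all 5 genes in late 2-cell embryos. Gm5662 rose from 23.0 and 29.0 FPKM with DMSO to 205 and 193 FPKM with TSA, which put it at rank 473 of the 15738 genes with at least 1 FPKM. Gm2022 rose from 11.1 and 20.9 to 177 and 174 FPKM, and Gm8300 from 14.8 and 17.6 to 115 and 94.4 FPKM. Gm2016 rose from 16.7 and 19.15 to 116 and 83.85 FPKM and BB287469 from 3.16 and 6.33 to 49.6 and 68.6 FPKM. In both TSA libraries Gm5662 was above Gm2022 and BB287469 was the lowest, while Gm8300 and Gm2016 overlapped. In all 5 both treated libraries lay above both DMSO libraries, as they did in 50.5% of all genes tested.

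All 5 were called higher, where 13.8% of 23429 genes were called higher and 13.9% lower. BB287469 had the largest fitted change, 3.29 (SE 0.28, edgeR adjusted p = 3.94e-06), followed by Gm2022 at 3.10 (SE 0.26, adjusted p = 3.33e-06). The change was 2.58 (SE 0.11, adjusted p = 2.72e-08) for Gm5662, 2.34 (SE 0.12, adjusted p = 1.11e-07) for Gm8300 and 2.12 (SE 0.15, adjusted p = 7.57e-07) for Gm2016. Their median was 2.58, beside 0.13 over all genes tested. With library totals as the size, 2385 genes were called lower and 4106 higher in place of 3247 and 3237, the median over all genes moved by 0.35, and the members ran from 2.48 to 3.64. Summed over the 5 genes, the level was 663 and 615 FPKM with TSA, above the 400 and 380 FPKM of early 2-cell DMSO embryos, although these libraries come from different stages and experiments and no test was made between them. The summed FPKM of the 5 markers of the 2-cell embryo was also higher with TSA, at 387 and 326 against 137 and 165. This sum was not tested and does not stand for each marker. Among the markers with a fitted change in the lists used here, Zscan4c was called higher (log2 change 1.6). Zscan4d (0.52), Tdpoz4 (0.39) and Usp17lc (0.78) were not called and fell short of a fold of 2. Markers of red blood cells added up to 9.19 and 6.95 FPKM with TSA and at most 0.21 FPKM in its controls, with the globin genes Hbb-bs and Hbb-bt at 0. Their part in the members' change was not tested.

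Because the copies are so alike, part of each count was shared out between genes. RSEM, the program used by the authors, divides a read that matches several genes by an expectation-maximization estimate, and the deposited posterior standard deviation of each count says how firmly the division was fixed. In early 2-cell DMSO embryos it was 0.9% and 0.8% of the count for Gm5662, 0.8% and 0.7% for Gm8300 and 1.5% and 1.6% for Gm2016. It was 3.3% and 3.4% for Gm2022 and 6.9% and 5.8% for BB287469. In late 2-cell A-485 embryos it rose to 18.5% and 19.3% for BB287469 and to 22.9% and 48.5% for Gm2022.

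The share of sequence found in one gene alone followed the same order. Of all stretches of 75 bases in the transcript of Gm8300, 83.4% occurred in no other gene's transcript. The share was 33.0% for Gm5662, 26.4% for Gm2016, 17.2% for Gm2022 and 6.2% for BB287469. Gm5662 and Gm2016 had 1091 such stretches in common, and 92.9% of those of BB287469 also occurred in Gm4027. Gm8300, with the most sequence of its own, had the same calls as the other 4 in each 2-cell comparison. With each member's count moved against its change by 2 posterior standard deviations in every library, 5 of 5 kept their call in early 2-cell A-485 and with TSA. In late 2-cell A-485, BB287469 lost it (log2 change -1.03, adjusted p = 0.12).

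BB287469 and Gm4027 share most of their sequence, and their levels were also added up. In the late 2-cell DMSO embryos of the A-485 experiment, BB287469 had 42.5 and 13.7 CPM (RSEM counts scaled to the library total) and Gm4027 the opposite order, at 29.5 and 46.9, while the sum of both was 72.0 and 60.6. The posterior standard deviations of Gm4027 there were 9.9% and 4.9% of its counts, and the part of read sharing in this swap was not tested. After A-485 the sum was 21.2 and 24.5 CPM. In zygotes the sum was 0.986 and 1.93 CPM with DMSO and 0.092 and 0.063 CPM with A-485. BB287469 alone had 2.59 counts in zygote DMSO replicate 2, with a posterior standard deviation of 15.53 counts. Tested as one gene, a choice made after seeing the data, the pair changed by -1.73 in late 2-cell A-485 (edgeR adjusted p = 2.09e-05), by -6.48 in early 2-cell A-485 (adjusted p = 8.08e-11) and by 2.72 with TSA (adjusted p = 6.2e-09).

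**Figure D3:**
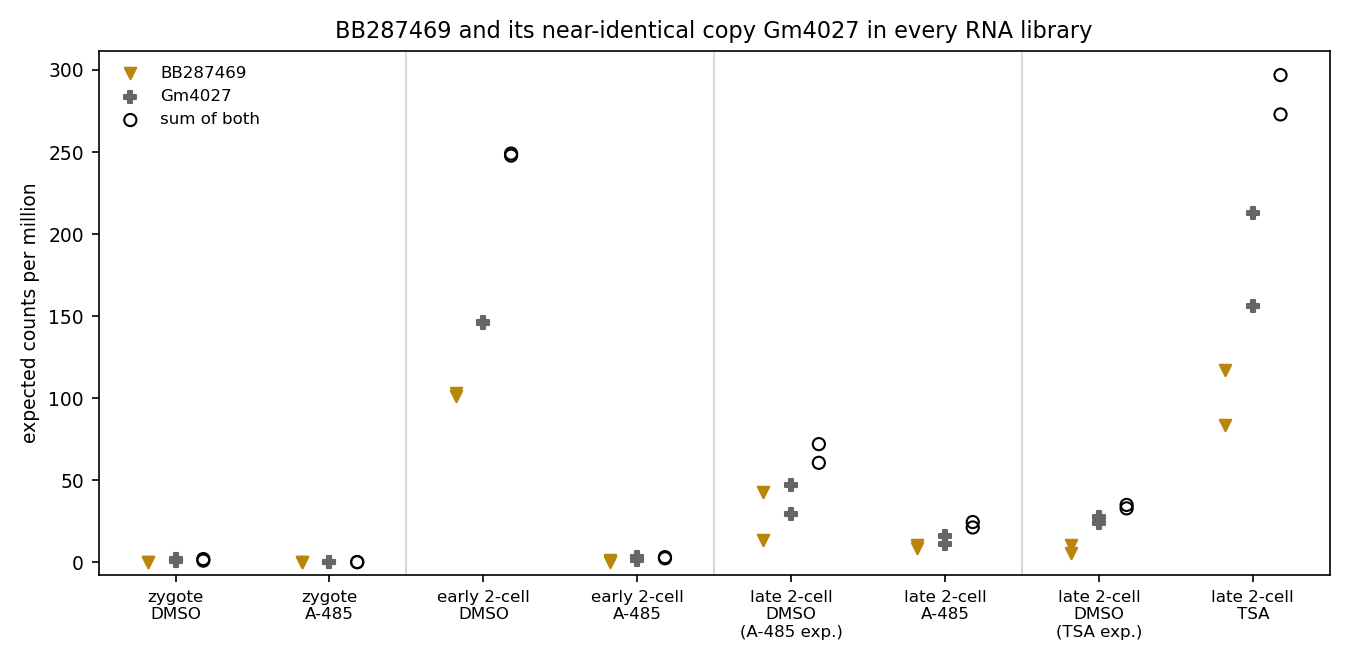
CPM of BB287469, of its near-identical copy Gm4027 and of their sum in each of the 16 RNA libraries. In the late 2-cell DMSO libraries of the A-485 experiment the 2 genes are ordered differently in each library, while their sums of 72.0 and 60.6 lie above the 21.2 and 24.5 after A-485.

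The other copies of the cluster moved with the members. In early 2-cell DMSO embryos all 16 copies together reached 1321 and 1401 FPKM, of which the 5 members made up 30.3% and 27.1%. Of the 11 other copies, 11 were called lower with A-485 in early 2-cell embryos, 9 lower in late 2-cell A-485 embryos and 11 higher with TSA. The early 2-cell median was -10.19, or -6.91 with the 6 copies that had no counts after A-485 set at a floor of 3 counts. Gm8332 had the highest level, at 377 and 445 FPKM in early 2-cell DMSO embryos, but none of its stretches of 75 bases was its own. Gm5039 and Gm21319, with 92.3% and 90.9% of their stretches unshared, are firmer. Gm5039 changed by -6.91 (adjusted p = 1.41e-09), -2.49 (adjusted p = 0.00158) and 3.42 (adjusted p = 2.97e-08) in the same 3 comparisons by edgeR. Gm21319 had no counts in early 2-cell A-485 embryos against 1006 with DMSO, 357-fold lower with the floor of 3 counts, and rose by 2.08 with TSA.

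The remaining copies were Gm2075, Gm4027, Gm21936, Gm5788, Gm2056, Gm2035, Gm6803 and Gm16368. In early 2-cell DMSO embryos the lowest of these was Gm16368, at 22.1 and 32.3 FPKM, and the highest Gm2075, at 95.3 and 93.4 FPKM. With TSA the other copies ran from 1.10 for Gm5788 to 4.88 for Gm6803. Gm5788 and Gm16368 had the smallest fitted changes with TSA. Gm5788 also stood at much the same level in late 2-cell DMSO embryos of the A-485 experiment, at 48.8 and 64.8 FPKM, as in early 2-cell ones, at 48.4 and 70.3 FPKM. Gm2035 and Gm6803 were not called in late 2-cell A-485 embryos, where each was at 0 in one library. The interaction of stage and A-485 lay above 0 at an adjusted p under 0.05 for 10 of the 11.

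Eif1ax and Eif1a are the eIF1A genes outside the cluster, and of these only Eif1a was called with A-485. Their FPKM also depend on which isoform was expressed, so they are given as CPM, which are not corrected for length. Eif1ax was high in DMSO zygotes, at 101 and 88.0 CPM, and stood at 23.6 and 23.7 in early 2-cell DMSO embryos. It was called in none of the 4 comparisons, with changes of 0.33 in early 2-cell A-485 (adjusted p = 0.21), 0.11 in late 2-cell A-485 (adjusted p = 0.73, and -0.51 with mitochondrial scaling) and 0.15 with TSA (adjusted p = 0.424). In FPKM, Eif1ax in late 2-cell embryos was lower after A-485, at 6.16 and 5.68 against 22.2 and 23.4 with DMSO. The transcript length used for these FPKM was 4953 and 4961 bases after A-485 and 1143 and 946 with DMSO. This difference in length was not tested. Eif1a was at 0.768 and 0.653 CPM in DMSO zygotes and at 14.4 and 15.7 CPM in early 2-cell DMSO embryos. With A-485 it was at 5.00 and 7.00 CPM, a change of -1.31 (SE 0.24, edgeR adjusted p = 0.00279). It was not called in late 2-cell A-485 (-0.85, adjusted p = 0.00514) or with TSA (-0.53, adjusted p = 0.0291), where the fold of 2 was not reached. With mitochondrial scaling it was called in late 2-cell A-485 (-1.48, adjusted p = 0.000118). The members' changes in early 2-cell A-485 embryos were -8.95 to -7.05, and the difference from Eif1a was not tested.

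**Figure D4:**
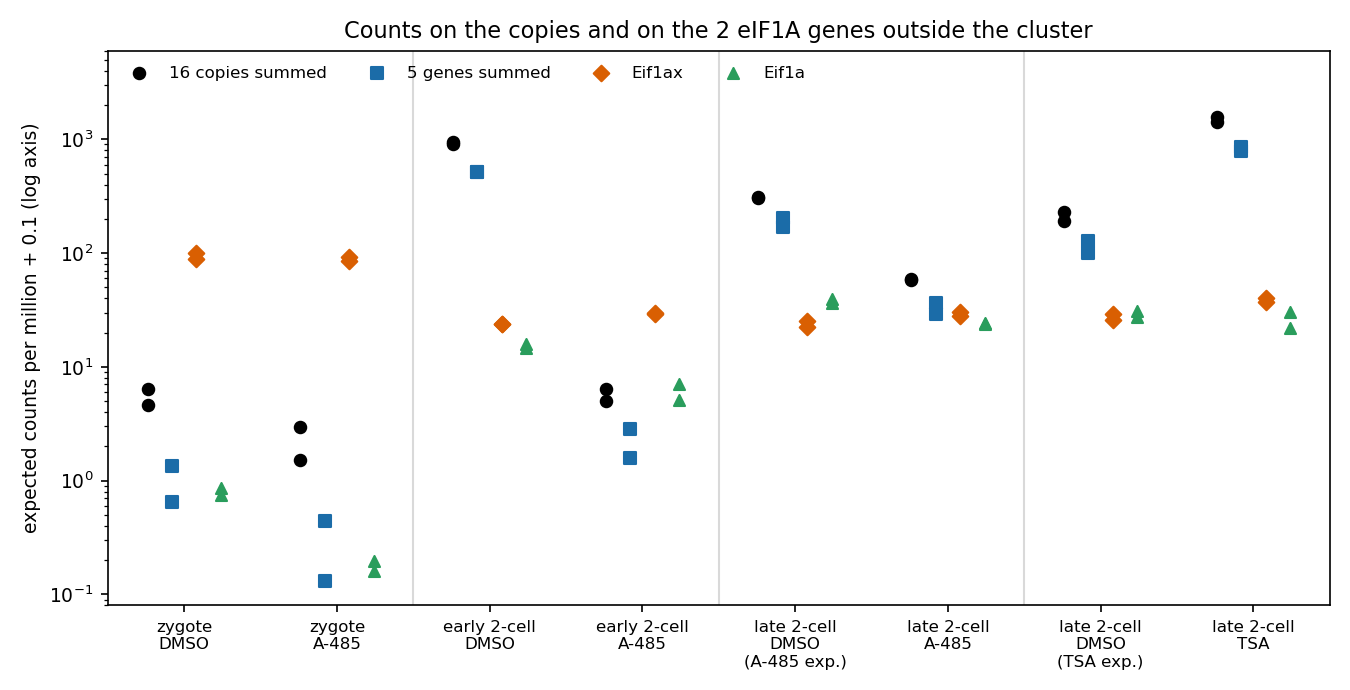
CPM + 0.1 (log axis, not corrected for length) of the 16 copies summed, the 5 genes summed, Eif1ax and Eif1a in each of the 16 RNA libraries. The copies are lowest in zygotes and in early 2-cell A-485 embryos, where Eif1ax stays at 29.5 and 29.2.

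The other members of the single-copy Eif1 family are Eif1 and Eif1b, which code for the start-codon selection factor eIF1 and its close relative, and Eif1ad, whose product is related to eIF1A by its domain. None of the 3 was called in zygotes or early 2-cell A-485 embryos. Eif1ad was lower in late 2-cell A-485 (-2.12, adjusted p = 1.13e-05) and with TSA (-1.54, adjusted p = 4.51e-06), and Eif1 was lower with TSA (-1.15, adjusted p = 4.29e-07, but -0.79 and not called with library totals). Eif1b was called in no comparison. By edgeR none of the 5 single-copy genes was called higher in any of the 4 comparisons, with 2 higher at an unadjusted p under 0.05 in early 2-cell A-485 and 0 in the others and 0 called by DESeq2, while the 5 copies on chromosome 12 were all called higher with TSA.

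Most genes of other initiation factors fell with both inhibitors in late 2-cell embryos. Of 35 genes for subunits of eIF2, eIF2B, eIF3, eIF4, eIF5 and eIF6 and their partners, 28 were called lower and 0 higher in late 2-cell A-485 embryos, and 32 lower and 0 higher with TSA (24 lower with library totals) by edgeR. No gene of the list was higher in either even at an unadjusted p under 0.05, and DESeq2 called 0 higher. In early 2-cell A-485 embryos 3 were lower, and the median of the list was -0.24. Eif3c, for a core subunit of eIF3, fell by 1.88 (adjusted p = 1e-05) and Eif2b4, for a subunit of the exchange factor of eIF2, by 1.76 (adjusted p = 0.00202). In late 2-cell A-485 the largest changes were those of Eif3g, another eIF3 subunit (-4.22, adjusted p = 1.05e-07), and Eif2b4 (-3.93, adjusted p = 2.32e-07). With TSA they were those of Eif3c (-4.69, adjusted p = 1.11e-09) and Eif6, which keeps the ribosomal subunits apart (-3.16, adjusted p = 5.94e-09). Thus the members and the initiation list had medians of 2.58 and -1.69 with TSA, and of -7.74 and -0.24 with A-485 in early 2-cell embryos.

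ATAC-seq, which marks open chromatin, was deposited as peak lists pooled over replicates, so their differences have no test. Of the 5 members, Gm5662 and Gm2016 had a listed peak within 1 kb of the annotated start. At Gm5662 the late 1-cell DMSO peak lay over the start at chr12:88274427-88274904 with a fold enrichment of 10.3 and a -log10 q of 33.4. In early 2-cell DMSO embryos the peak there spanned chr12:88274427-88275030 with an enrichment of 17.96 and a -log10 q of 136.8. No peak was listed at Gm5662 with A-485 at either stage.

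At Gm2016 the DMSO peaks had enrichments of 8.14 at chr12:87873746-87874078 in late 1-cell and 13.8 at chr12:87873415-87874094 in early 2-cell embryos. With A-485 none was listed in late 1-cell embryos, and a smaller one with an enrichment of 6.89 was listed at chr12:87873804-87874046 in early 2-cell embryos, 26 bases from the start. Gm8300, Gm2022 and BB287469 had no listed peak in any of the 4 lists. How much of the sequence at each start is unique differed between the 5. Of the stretches of 75 bases within 300 bases of the start, 89.8% occurred once in the genome for Gm8300, 316 of 527 stretches for Gm2016, 56.4% for Gm5662, 42.5% for Gm2022 and 34.3% for BB287469. How reads with several matches were treated in the ATAC data is not given in the sources used here.

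Over the whole interval of the 16 copies, 4 peaks were listed in late 1-cell DMSO, none with A-485, 16 in early 2-cell DMSO and 1 with A-485. Of the 16 in early 2-cell DMSO, 15 were without an overlapping peak in the A-485 list, where the share was 78.3% over all 27693 peaks of that list. Of the 4 in late 1-cell DMSO, 4 were without one, where the share was 51.2% over all 10214 peaks. Of the other copies, Gm21319 had a peak over its start in early 2-cell DMSO embryos with an enrichment of 10.4, and Gm5039 had one 61 bases away with 8.68.

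**Figure D5:**
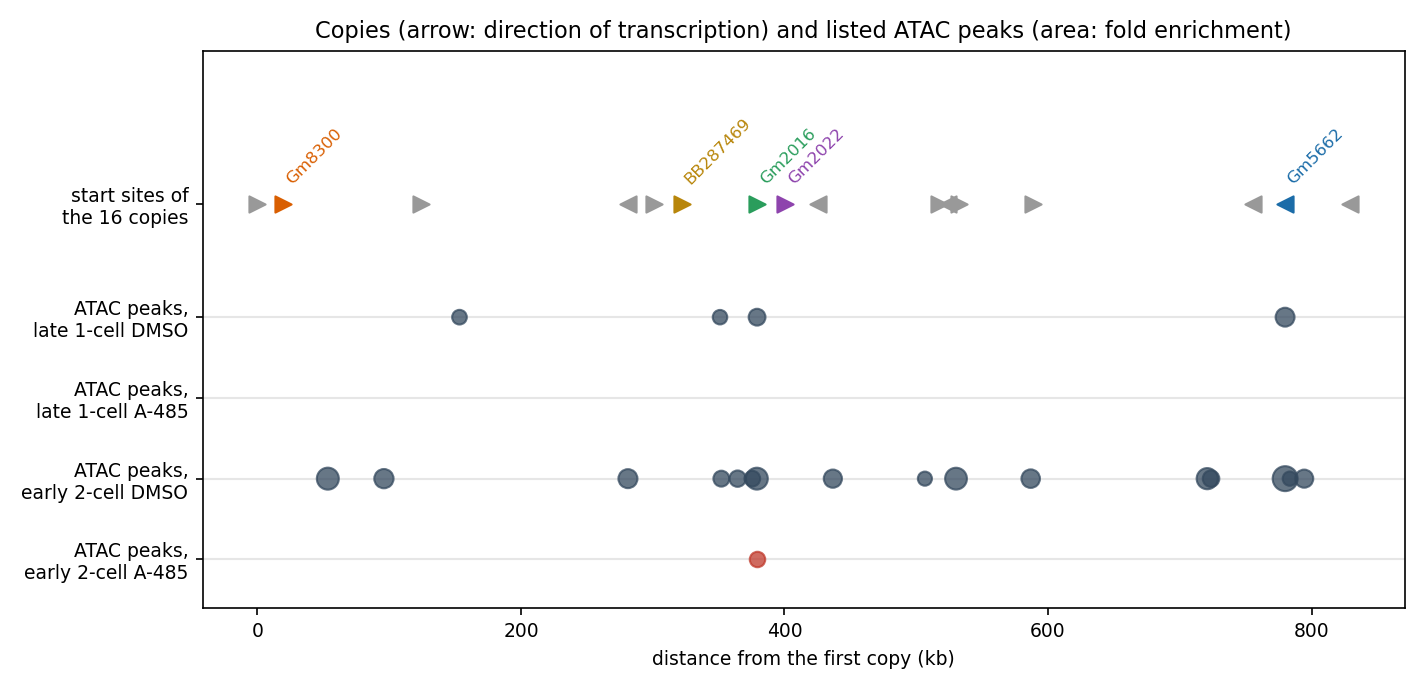
Start sites and direction of transcription of the 16 copies by distance from the first copy in kb, with the listed ATAC peaks of the 4 lists below (area of each circle proportional to fold enrichment). Peaks number 4 in late 1-cell DMSO, 0 in late 1-cell A-485, 16 in early 2-cell DMSO and 1 in early 2-cell A-485, the last of which lies at Gm2016.

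Likeness to the members over the 16 libraries was ranked across genes. Among 9424 other genes with a group mean of at least 10 FPKM, the highest Pearson correlations with the members' mean log2(FPKM + 0.1) were those of Gm12183 (0.992), Gm9048 (0.992), Gm8332 (0.991), Gm8994 (0.99) and Gm14929 (0.99). Gm8994 followed the members in level too, from 53.0 and 46.0 FPKM in early 2-cell DMSO embryos to 0.26 and 0.74 with A-485, and 146 and 114 FPKM with TSA. Gm8332 is a copy of the same cluster. With a pseudocount of 1 only 1 of these 5 genes stayed among the first 5, and with Spearman's rho 3 did. The points share libraries and stages, so the values describe likeness only.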

How the data were processed

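Total RNA-seq (16 libraries) and ATAC-seq (4 peak lists) of mouse embryos were used. The 5 genes and the compared lists were chosen with earlier results of these data known. Per the submitters' notes and the methods, the authors trimmed reads with Trimmomatic 0.39, mapped them to GRCm38 with STAR 2.7.8a and quantified genes with RSEM 1.3.1. The deposited tables give expected counts, their posterior standard deviations and FPKM per gene. The strand setting of the counting is not given in the sources used here. Reads shared by copies are divided by RSEM, which can move counts between them. The deposited ATAC peak lists, pooled over replicates, give a fold enrichment (a ratio) and a −log10 q-value per peak.

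Gene identifiers were matched to GENCODE M21 (55144 of 55385). Library totals were 13206163 to 32585987 expected counts, lowest in late 2-cell A-485. Precision for the 5 genes is lowest in zygotes and early 2-cell A-485, where their own counts are few. Replicates differed by more than counting noise (chi-square per degree of freedom of 8.99 to 18.01), so none was counted as one library. Expected counts were rounded and tested with edgeR 4.0.16 (quasi-likelihood, TMM scaling, genes with at least 10 summed counts) for each treatment against its own DMSO group, and with an interaction term for A-485 by stage. Adjusted p-values are Benjamini-Hochberg over all genes tested. The groups were taken from sample titles and treatment labels. The 2 late 2-cell DMSO groups differ in their titles only, and each was assigned to the experiment whose treated samples have the same style of title. Alternatives were DESeq2 1.42.0, other scalings, no count filter, no FPKM cutoff, all 16 libraries in one fit, a replicate block, counts moved by 2 posterior standard deviations and leaving out each library. Where leaving one out left 1 library in an arm, that library was assumed to vary like the other arm. Data were also simulated from the mean counts of early 2-cell DMSO embryos, with a spread between replicates set by hand and changes given only to better-counted genes. Of 200 genes changed 4-fold among 17822, 196 were recovered, with 3 false calls. These values check the running of the test and do not measure its error at the real spread or at few counts. eIF1A-like genes were found with blastp 2.17.0 on GENCODE M21 coding sequences translated here, since the protein table planned for it was not used here. Peaks were intersected with bedtools 2.31.1, any overlap counting as shared.

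Named genes were all members, other eIF1A-like copies reaching 1 FPKM, the single-copy Eif1 family, in each list or family the called genes with the largest change (2 per direction for the initiation list), Duxf3, and the 5 genes most like the members. The H3K27ac samples were not analysed here. Marker lists for cumulus cells, fibroblasts and sperm summed to at most 1.63, 2.64 and 18.8 FPKM in any library. One gene of a marker list is not reported here by name.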

Additional observations from a re-analysis of the deposited data

Results flagged for a closer look

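All 5 genes were picked out because their response to A-485 differed between stages in a test of the difference (interaction term, edgeR's quasi-likelihood test). The change was less negative in late than in early 2-cell embryos by 4.78 log2 units for Gm5662, 6.62 for Gm8300, 5.01 for Gm2016, 3.58 for Gm2022 and 5.69 for BB287469. The value of Gm2022 fell to 2.20 (adjusted p = 0.173) without late 2-cell A-485 replicate 1, while leaving out any other single library kept its adjusted p under the threshold. The A-485 libraries of late 2-cell embryos were also the shallowest, at 13206163 and 14922961 counts, and carried the highest mitochondrial shares, at 19.5% and 20.7%. The part of either in the difference was not tested.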

How the results depend on the processing

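The calls of the 5 genes in early 2-cell A-485 and late 2-cell TSA kept their direction and their side of the threshold under every alternative run, and so did the late 2-cell A-485 calls of Gm5662, Gm8300, Gm2016 and Gm2022. BB287469 lost its late 2-cell A-485 call without DMSO replicate 1 (-0.65) and with counts moved by 2 posterior standard deviations (-1.03), and over its alternatives the change ran from -2.37 to -0.65. In zygotes the change of Gm5662, which was not called, reversed to -0.41 with a replicate block, to -0.99 with counts moved by 2 posterior standard deviations, and ran from -2.16 to 0.89 when each library was left out. Gm2022 lost its interaction call without late 2-cell A-485 replicate 1 (2.20). The early 2-cell change of the summed FPKM moved from -7.76 to -5.87 when all 18 eIF1A-like genes were added up. It was -7.48 over the 16 copies without Eif1a and Eif1ax, and in CPM the sum of the 18 genes changed by -4.56, beside -7.93 for the members. Of the 5 genes most like the members, 1 stayed with a pseudocount of 1 and 3 with Spearman's rho. The cause of these changes in BB287469 and Gm2022 was not tested.

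Replicate numbers were shared between groups, and nothing in the labels says whether same-numbered samples were collected together. The main tests treated them as unpaired, and pairing was not excluded. Deviations of same-numbered samples correlated at 0.092 in zygotes, -0.019 and -0.031 in early and late 2-cell A-485 and 0.062 with TSA. With the replicate block, 5 of 5 members stayed lower in both 2-cell A-485 comparisons and 5 of 5 higher with TSA, and over all genes the zygote calls rose from 12 to 32 lower and from 1 to 7 higher. Over all genes, zygote calls were also 29 lower and 10 higher with no count filter, 24 and 5 with all 16 libraries in one fit and 0 higher with DESeq2, and ran from 12 to 45 lower and up to 11 higher over all alternatives. Early 2-cell A-485 had 84 genes higher, 137 with no count filter and 161 with no FPKM cutoff. Late 2-cell A-485 had 2406 genes higher, 1517 with mitochondrial scaling. The members' own low counts limit precision in zygotes, where 3 of the 5 had under 10 summed counts, and in early 2-cell A-485 embryos; the zygote libraries were the deepest.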

Other observations

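Other multicopy gene families of the 2-cell embryo were compared as lists. For the Zscan4 family, which codes for zinc-finger proteins, 9 of 9 genes were called lower in early 2-cell A-485 embryos, 8 of 9 lower in late 2-cell A-485 embryos and 7 of 9 higher with TSA, with medians of -7.09, -2.13 and 1.32. Zscan4-ps3 had no counts in early 2-cell A-485 embryos against 3773 with DMSO, 1340-fold lower with a floor of 3 counts. The largest called changes of this family were those of Zscan4b in late 2-cell A-485 (-3.35, edgeR adjusted p = 0.000527) and Zscan4-ps2 with TSA (2.32, adjusted p = 1.61e-06). The Tdpoz genes, which code for TRAF and BTB domain proteins, were called lower in 5 of 5 cases in both 2-cell A-485 comparisons, and 1 of 5 rose with TSA, with medians of -7.94, -3.38 and -0.18. That gene was Tdpoz3, at 16.6 and 11.4 FPKM with DMSO and 99.5 and 79.8 FPKM with TSA, whereas Tdpoz1 was at 34.4 and 45.1 against 44.9 and 45.5 FPKM. With TSA Tdpoz2 changed by -0.86 (edgeR adjusted p = 0.00215) and Tdpoz5 by -0.48 (adjusted p = 0.0106), both short of a fold of 2. Tdpoz1 had 1.25 expected counts in early 2-cell A-485 embryos against 2252 with DMSO, and Tdpoz5 had the largest change of the list in late 2-cell A-485 (-3.88, adjusted p = 3.19e-06).

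The Usp17l genes, which code for deubiquitinating enzymes, were called lower in 5 of 5 cases in early 2-cell A-485 and 3 of 5 in late 2-cell A-485 (5 of 5 with mitochondrial scaling), and higher in 2 of 5 with TSA (4 of 5 with library totals). Usp17lb had the largest early 2-cell change (-6.13, edgeR adjusted p = 1.17e-08) and late 2-cell A-485 change (-4.97, adjusted p = 3.96e-08), and Usp17la the largest with TSA (2.50, adjusted p = 1.46e-07). In zygotes 2 of the 5 were called lower, led by Usp17ld at 2.35 and 3.12 FPKM with DMSO and 0.14 and 0.23 FPKM with A-485 (adjusted p = 0.00127). Duxf3 was higher with TSA, at 5.69 and 3.31 against 17.2 and 20.0 FPKM (log2 change 1.65, adjusted p = 0.000165).

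Within 500 kb of the members, 44 genes other than the copies reached 1 FPKM. In early 2-cell A-485 embryos 34 of them were tested, and edgeR called 12 lower and 0 higher (2 higher at an unadjusted p under 0.05). Over all genes tested there, 7.9% were called lower and 0.402% higher. In late 2-cell A-485 embryos 13 of 33 were lower and 1 higher, where the shares over all genes were 16.8% and 10.5%. With TSA 10 of 36 were lower and 5 higher, where the shares were 13.9% and 13.8%. Gm16381 and Gm2001 had the same values in every comparison but are counted separately. The genes named next were picked after their values were seen. Gm3742, a processed pseudogene lying between the copies, had a mean of 59.1 FPKM with DMSO and 4.01 FPKM with TSA (log2 change -4.25, edgeR adjusted p = 1.4e-07), and was also lower in late 2-cell A-485 embryos (-5.16, adjusted p = 5.07e-08). Other pseudogenes had the members' directions in early 2-cell A-485 and with TSA. Gm48388, Gm8607, Gm21939 and Gm18983 were called lower in the first and higher in the second. In late 2-cell A-485 only Gm21939 of these was called lower (-2.22, edgeR adjusted p = 0.00884). Gm48388 (-1.53, adjusted p = 0.13), Gm18983 (-0.46, adjusted p = 0.226) and Gm8607 (-0.16, adjusted p = 0.942) were not called there. Gm48388, between the copies, had a mean of 36.8 FPKM with DMSO and 258 FPKM with TSA (log2 change 2.47, adjusted p = 4.86e-05).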
